A study of Bos taurus with 14 samples.

Results

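The enzymes of mitochondrial beta-oxidation described here are the products of 10 genes, *ACADVL*, *ACADL*, *ACADM*, *ACADS*, *HADHA*, *HADHB*, *HADH*, *ECHS1*, *DECR1* and *ACAA2*. They were listed by name as textbook members of the cycle, with earlier results of these data known. The array carries 12 probe sets (groups of short probes that read 1 transcript) for them, out of 24016 bovine probe sets tested, and each gene is represented by its probe set with the highest mean. Expression was measured in *M. longissimus dorsi* (LD) muscle of growing Charolais × Limousin crossbred heifers, 1 Affymetrix Bovine Genome array per animal. The 7 outdoor/pasture-fed heifers grazed ryegrass, meadow grass and white clover for the year before slaughter. The 7 indoor/concentrate-fed heifers were housed over the same year and ate barley straw with a concentrate of beet pulp, barley, soybean meal and molasses. The animals had been assigned to the groups at random. Housing and diet differed together, and the paper proposes that exercise was also likely greater outdoors, so that their effects cannot be told apart. Within each treatment the animals were managed in several smaller groups that the labels do not name, and every test treats them as independent.

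Beta-oxidation shortens a fatty acid inside the mitochondrion and yields acetyl-CoA and reduced electron carriers for respiration. Each turn has the same order of reactions, which are a first oxidation by an acyl-CoA dehydrogenase, the addition of water by a hydratase, a second oxidation by a hydroxyacyl-CoA dehydrogenase and a cleavage by a thiolase. Separate enzymes serve long, medium and short acyl chains. Long chains use the trifunctional protein of the inner membrane, whose subunits are encoded by *HADHA* and *HADHB*, while shorter chains use soluble enzymes of the matrix. Oxidative muscle fibres use this pathway heavily, and it is a classical target of the peroxisome proliferator-activated receptors.

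The mean of each of the 10 genes was higher in the outdoor/pasture-fed heifers, and no single gene passed the adjusted threshold. The log2 differences, always outdoor minus indoor, ran from 0.15 (*ECHS1*) to 0.48 (*HADHA*), with a median of 0.27. The median over the 9623 probe sets that vary over the arrays (a standard deviation, SD, above 0.01) was -0.01. In limma, a linear model with moderated variances, the adjusted p of the 10 genes lay between 0.213 and 0.617 over all probe sets, and between 0.0824 and 0.383 among the varying ones. Over all probe sets 0.0125% passed this threshold as higher outdoors, and 0 of the 10 genes did. At an unadjusted p under 0.05 in limma, 8 of the 10 were higher outdoors, against 5.35% of all probe sets and 9.23% of the varying ones. The same 8 had an exact permutation p under 0.05. The 8 fell to 5 without outdoor/pasture-fed replicate 1, indoor/concentrate-fed replicate 3 or indoor/concentrate-fed replicate 7, and all 10 differences remained above 0 without any single array. The shares of all probe sets were not counted again with an array left out. The genes were read in the same animals and often stood high or low together in them, so the counts are not counts of independent events. In whole muscle, fewer cells of a type and less RNA per cell cannot be told apart.

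**Figure D1:**
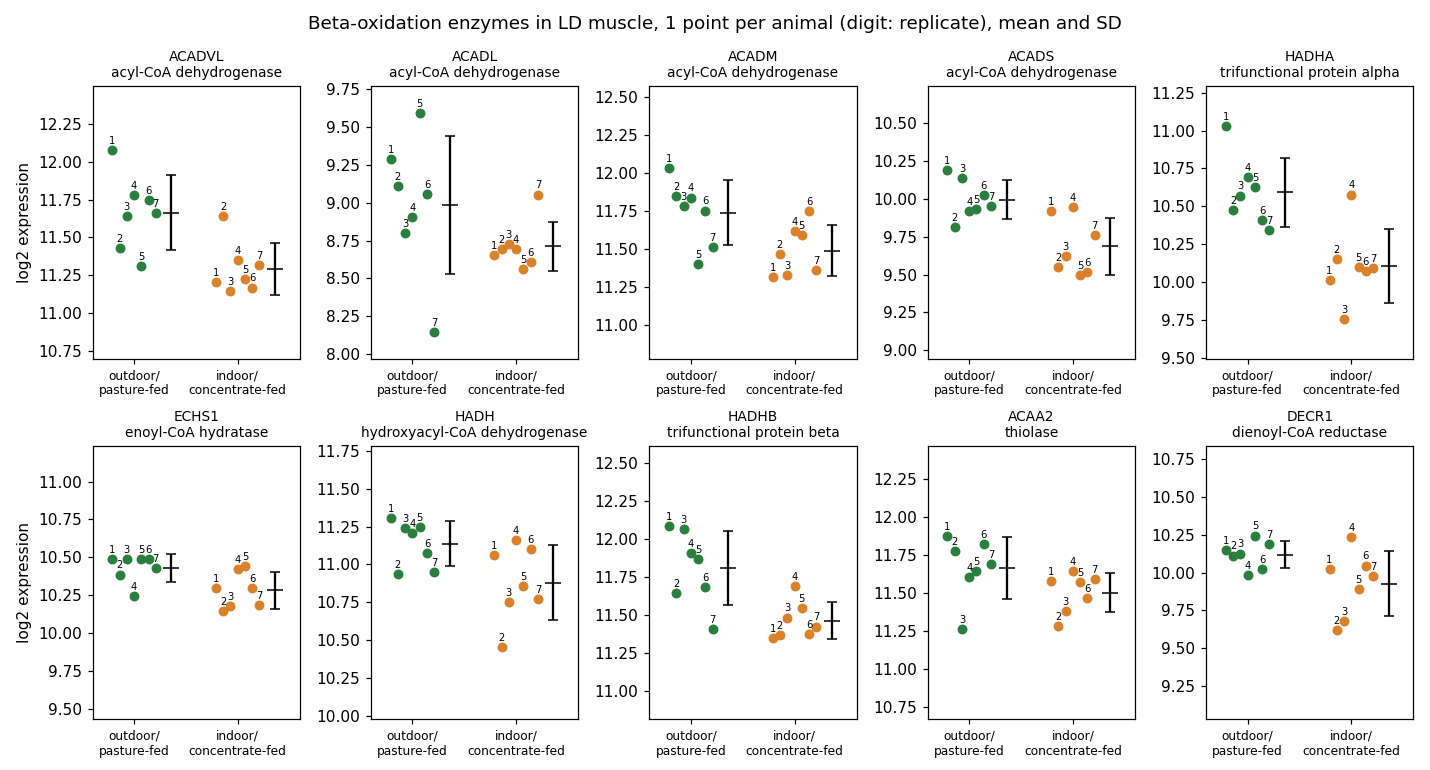
Log2 expression (vertical axes, each spanning the same range of 1.8) of the 10 genes in the outdoor (green, n = 7) and indoor (orange, n = 7) heifers, each point an animal with its replicate number, and the mean (bar) with SD (whiskers). The outdoor mean is higher for every gene, and the groups overlap for every gene.

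The acyl-CoA dehydrogenases, which take the first step, were higher outdoors by 0.25 to 0.37. *ACADVL*, on chromosome 19 of the ARS-UCD2.0 annotation, encodes the membrane-bound enzyme for very long and long chains. Its lowest, median and highest values were 11.31, 11.66 and 12.08 outdoors and 11.15, 11.22 and 11.64 indoors. Of the outdoor animals 5 lay above every indoor animal, but replicate 3 of these was practically level with the highest indoor animal, at 11.64. That indoor animal, indoor/concentrate-fed replicate 2, stood apart from the rest of its group. The means were 11.66 ± 0.25 (SD, n = 7) and 11.29 ± 0.17 (SD, n = 7), a difference of 0.37 (SE 0.11, 95% interval 0.13 to 0.62), or 1.29-fold. The exact permutation p, two-sided, was 0.00816 and the adjusted p from limma was 0.252.

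*ACADS* (chromosome 17) encodes the dehydrogenase for short chains. It ranged from 9.81 to 10.19 outdoors, with a median of 9.96, and from 9.50 to 9.95 indoors, with a median of 9.63. All 7 outdoor animals lay above the indoor median, and indoor/concentrate-fed replicates 1 and 4 reached into the outdoor range. The difference was 0.31 (SE 0.09, 95% interval 0.12 to 0.50, exact permutation p = 0.00583, adjusted p = 0.234 from limma).

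*ACADM* (chromosome 3), the dehydrogenase for medium chains, ranged from 11.40 to 12.04 outdoors (median 11.78) and from 11.31 to 11.75 indoors (median 11.47). The 2 lowest outdoor animals, replicates 5 and 7, lay within the indoor range. The other 5 lay above every indoor animal, replicate 6 by a narrow margin. The difference was 0.25 (SE 0.10, exact permutation p = 0.0367, adjusted p = 0.378 from limma).

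*ACADL* (chromosome 2), a dehydrogenase for long chains, varied most between outdoor animals. Its values ran from 8.14 to 9.59 outdoors (median 9.05) and from 8.56 to 9.05 indoors (median 8.69). Outdoor/pasture-fed replicate 7 had the lowest value of all 14 animals and replicate 5 the highest. The outdoor SD of 0.45 was the largest of any of the 10 genes, against 0.16 indoors, and the difference of 0.27 (SE 0.18, 95% interval -0.12 to 0.66) had an exact permutation p of 0.162. Without outdoor/pasture-fed replicate 7 it was 0.41, the highest value on leaving out 1 array, and without replicate 5 it was 0.17, the lowest. A second *ACADL* probe set also placed replicate 5 highest, at 6.96, and replicate 7 lowest, at 6.12, with a difference of 0.15 (SE 0.11, exact permutation p = 0.203). The spread between outdoor animals was thus read by both probe sets.

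The trifunctional protein, which carries long chains through the rest of the turn, had the largest difference of the 10 genes in its alpha subunit. *HADHA* and *HADHB* are neighbours on chromosome 11, with no annotated gene between them. *HADHA* encodes the subunit with the hydratase and hydroxyacyl-CoA dehydrogenase activities. Its values ran from 10.34 to 11.03 outdoors (median 10.57) and from 9.75 to 10.58 indoors (median 10.09). All 7 outdoor animals lay above 6 of the 7 indoor animals, and the remaining one, indoor/concentrate-fed replicate 4, was at 10.58. The means were 10.59 ± 0.23 (SD, n = 7) and 10.11 ± 0.24 (SD, n = 7), and the difference was 0.48 (SE 0.13, 95% interval 0.21 to 0.76), or 1.40-fold (95% interval 1.16 to 1.69). The exact permutation p was 0.00291 and the adjusted p from limma 0.213, the lowest of the 10 genes. Without indoor/concentrate-fed replicate 4, the only indoor animal within the outdoor range, the difference was 0.56 (adjusted p = 0.128 from limma). Groups with every outdoor animal above every indoor animal were found for 0.217% of all probe sets, and with all 14 arrays for none of the 10 genes.

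*HADHB* encodes the subunit with the long-chain thiolase activity. It ranged from 11.41 to 12.09 outdoors (median 11.87) and from 11.35 to 11.69 indoors (median 11.42). Outdoor/pasture-fed replicates 1 and 3 stood at the top, at 12.09 and 12.07, while replicate 7 lay just below the indoor median. The difference was 0.35 (SE 0.10, 95% interval 0.12 to 0.57, exact permutation p = 0.00874, adjusted p = 0.247 from limma), and it was 0.41 without outdoor/pasture-fed replicate 7.

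The matrix enzymes of these later steps differed by less. *ECHS1* (chromosome 26), the short-chain enoyl-CoA hydratase, varied little between animals, from 10.24 to 10.49 outdoors (median 10.49) and from 10.14 to 10.44 indoors (median 10.29). Outdoor/pasture-fed replicate 4 was the lowest of its group, and 4 outdoor animals, all at 10.49, lay above every indoor animal. The difference was 0.15 (SE 0.06, exact permutation p = 0.0280, adjusted p = 0.335 from limma), or 1.11-fold.

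*HADH* (chromosome 6), the hydroxyacyl-CoA dehydrogenase for short and medium chains, ranged from 10.94 to 11.30 outdoors (median 11.21) and from 10.46 to 11.16 indoors (median 10.86). Here the indoor animals spread more widely than the outdoor ones, with SDs of 0.25 and 0.15. Indoor/concentrate-fed replicates 1, 4 and 6 lay within the outdoor range and replicate 2 was lowest. The difference was 0.26 (SE 0.11, exact permutation p = 0.0355, adjusted p = 0.391 from limma).

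*ACAA2* (chromosome 24), the matrix thiolase, ranged from 11.26 to 11.88 outdoors (median 11.69) and from 11.28 to 11.64 indoors (median 11.57). Outdoor/pasture-fed replicate 3, among the highest for *HADHB*, had the lowest value of all 14 animals for *ACAA2*. The difference was 0.17 (SE 0.09, 95% interval -0.03 to 0.36, exact permutation p = 0.0991), and without that animal it was 0.23 (adjusted p = 0.369 from limma).

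*DECR1* (chromosome 14) encodes the dienoyl-CoA reductase, an auxiliary enzyme that unsaturated fatty acids need to pass through the cycle. The outdoor values lay close together, from 9.98 to 10.25 (median 10.13), and the indoor values from 9.62 to 10.23 (median 9.98). All 7 outdoor animals were above the indoor median, by a narrow margin for the lowest, and indoor/concentrate-fed replicates 2 and 3 were lowest. The difference was 0.19 (SE 0.09, exact permutation p = 0.0490, adjusted p = 0.428 from limma). A second *DECR1* probe set differed by 0.21 (SE 0.14, exact permutation p = 0.173), with indoor/concentrate-fed replicate 2 lowest there as well.

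**Figure D2:**
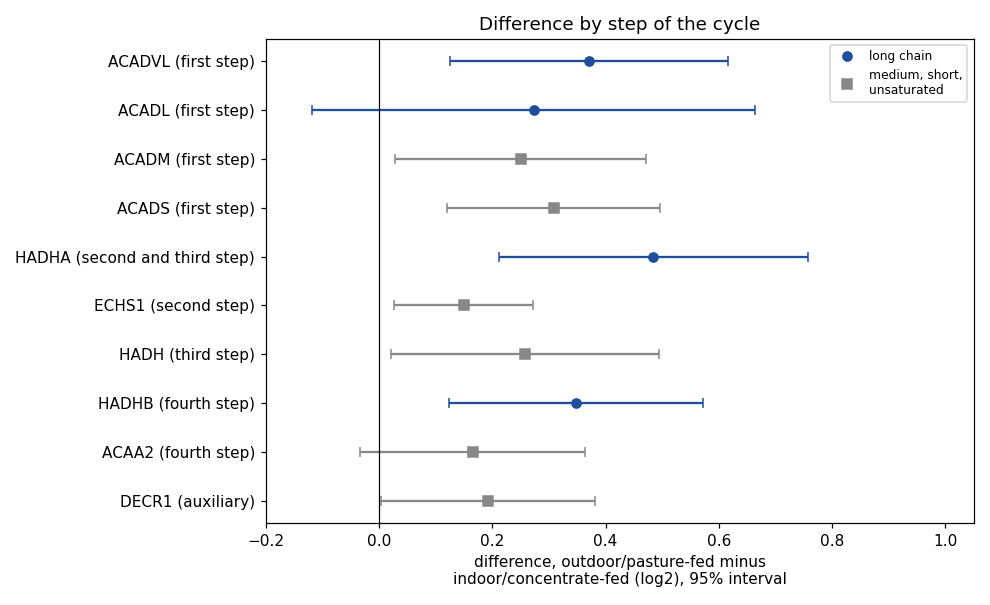
Log2 difference, outdoor minus indoor (horizontal axis), of each gene in order of the step with its 95% interval from limma, for long-chain genes (blue circles) and for medium-chain, short-chain and unsaturated-chain genes (grey squares). The interval lies above 0 for 8 of the 10 genes and spans 0 for *ACADL* and *ACAA2*.

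By chain length, the 4 long-chain genes (*ACADVL*, *ACADL*, *HADHA* and *HADHB*) had differences of 0.27 to 0.48, with a median of 0.36. The 5 genes for medium and short chains (*ACADM*, *ACADS*, *HADH*, *ECHS1* and *ACAA2*) had differences of 0.15 to 0.31, with a median of 0.25. The intervals of the genes overlap, and the difference between the sets was not tested. Of the hydratases, *HADHA* differed by 0.48 and *ECHS1* by 0.15, and of the thiolases *HADHB* differed by 0.35 and *ACAA2* by 0.17. At the third step *HADHA* stands beside *HADH*, which differed by 0.26. Among the acyl-CoA dehydrogenases the short-chain *ACADS* at 0.31 lay between the long-chain *ACADVL* at 0.37 and *ACADL* at 0.27. In these point estimates the order by chain length was not the same at each step. The order of *ACADS* and *ACADL* changed with single animals. Without outdoor/pasture-fed replicate 7 they differed by 0.32 and 0.41.

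Some animals were high or low for most of the genes. Outdoor/pasture-fed replicate 1 had the highest value of all 14 animals for 7 of the 10 genes and lay above the 14-array mean for all 10. Its values stood on average 0.38 above those means. The next highest animals, outdoor/pasture-fed replicates 5 and 3, stood 0.16 and 0.14 above. Outdoor/pasture-fed replicate 7, at -0.05, was the one outdoor animal with an average below the mean, and *ACADL* was its lowest gene. Among the indoor animals replicate 4 was apart. It was the highest of its group for 6 of the 10 genes and among the 2 highest for 9, with an average of 0.06, while the other 6 indoor animals lay between -0.27 (replicate 3) and -0.12 (replicate 7). With the highest animal of each group left out together (outdoor replicate 1, indoor replicate 4), the median difference was 0.26. In that fit 7 of the 10 genes were higher at an unadjusted p under 0.05 in limma. The animals left out were chosen after seeing the data, and the share of all probe sets was not counted for that fit.

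**Figure D3:**
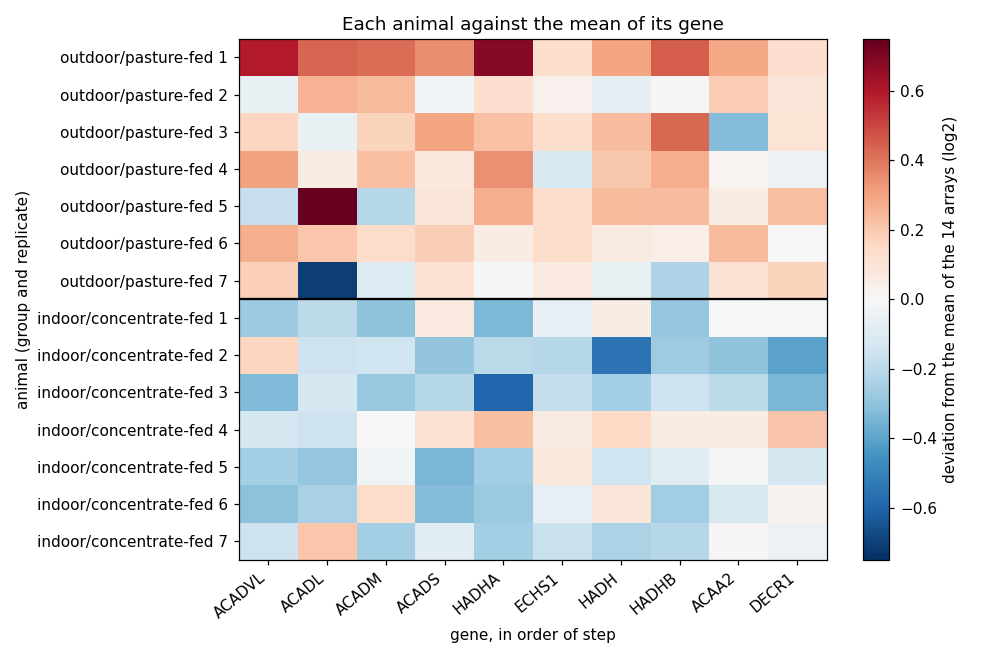
Deviation of each animal (rows, outdoor above the line and indoor below it) from the 14-array mean of each gene (columns, in order of step), on the log2 scale. Outdoor/pasture-fed replicate 1 is above the mean (red) for all 10 genes and indoor/concentrate-fed replicate 3 is below it (blue) for all 10.

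The neighbouring genes of the pathway were mostly higher outdoors as well, and none passed the threshold adjusted over all probe sets in limma. In the carnitine shuttle, which brings acyl chains to these enzymes, 4 of 5 measured genes were higher. Of these, 3 had an unadjusted p under 0.05 in limma, against 9.23% of the varying probe sets. The muscle carnitine palmitoyltransferase *CPT1B* ranged from 9.79 to 10.19 outdoors and from 8.98 to 9.73 indoors, without overlap. It was higher by 0.65 (SE 0.11), with an adjusted p from limma of 0.105, or of 0.0249 when the near-constant probe sets are left out of the adjustment. The paper, after its own filter for informative probe sets, listed *CPT1B* as up-regulated in the pasture-fed group. It also reported a difference by quantitative PCR in a larger set of animals that included these. The carnitine carrier *SLC25A20* was higher by 0.14 (exact permutation p = 0.00117). Of the auxiliary and last-step enzymes, 3 of 5 measured genes varied and all 3 were higher, among them the acetyl-CoA acetyltransferase *ACAT1* by 0.36 (exact permutation p = 0.0350) and the isomerase *ECI1* by 0.07 (exact permutation p = 0.104). The electron transfer flavoprotein takes up the electrons of the acyl-CoA dehydrogenases. Its subunits *ETFB* and *ETFA* were higher by 0.24 (exact permutation p = 0.0140) and 0.11 (exact permutation p = 0.182).

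Of the acyl-CoA dehydrogenases of amino acid breakdown and other relatives, 3 of 5 measured genes varied and all 3 were higher. They included glutaryl-CoA dehydrogenase (*GCDH*) by 0.14 (exact permutation p = 0.0484) and isovaleryl-CoA dehydrogenase (*IVD*) by 0.34 (exact permutation p = 0.111). In the peroxisome, which shortens very long and branched chains with its own enzymes, the acyl-CoA oxidases *ACOX2* and *ACOX3* were higher by 0.70 (exact permutation p = 0.00117) and 0.72 (exact permutation p = 0.0449). The other 4 varying peroxisomal genes lay between -0.02 and 0.05. The median over the 6 was 0.04. Of 6 measured transcriptional regulators of these enzymes, 3 were higher and 3 lower. The fatty acid receptors *PPARA* and *PPARD* differed by -0.18 (exact permutation p = 0.0390) and -0.42 (exact permutation p = 0.106).

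Genes of other mitochondrial parts and markers of cell types were also read, and none of them passed the adjusted threshold in limma. Several differed between the groups at an unadjusted p under 0.05, and their part in the differences of the 10 genes was not tested. Of 11 measured genes of general mitochondrial content, 10 were higher outdoors and 5 of them had an unadjusted p under 0.05 in limma, with a median difference of 0.10. Of the varying probe sets 9.23% were higher outdoors at this p. The complex I subunit *NDUFS1* was higher by 0.38 (exact permutation p = 0.0157) and the outer membrane channel *VDAC2* by 0.10 (exact permutation p = 0.0128). The mean log2 level of this list ran from 11.94 to 12.21 outdoors and from 11.81 to 12.17 indoors. All 6 varying slow fibre markers had a higher mean outdoors, with a median difference of 0.14, and 1 of them had an unadjusted p under 0.05 in limma. This was the calcium pump *ATP2A2* at 0.16 (exact permutation p = 0.0186), followed by the slow troponin *TNNC1* at 0.03 (exact permutation p = 0.0583). Their list means (7 markers measured) ran from 13.19 to 13.37 outdoors and from 12.64 to 13.33 indoors. In both lists outdoor/pasture-fed replicate 1 had the highest mean of the 14 animals, indoor/concentrate-fed replicate 4 the second highest and indoor/concentrate-fed replicate 3 the lowest. In the mean of the 10 beta-oxidation genes the same animals were 1st, 7th and 14th from the top.

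Markers of endothelium, the lining of the capillaries, were also higher outdoors. All 5 that varied were higher, each at an unadjusted p under 0.05 in limma, against 9.23% of the varying probe sets. Their median difference was 0.43, beside 0.27 for the beta-oxidation genes, and the sixth, *VWF*, was read as nearly constant. The lowest adjusted p of the 6 markers from limma was 0.147, or 0.0516 among the varying probe sets. The adhesion molecule *PECAM1* was higher by 0.54 (exact permutation p = 0.000583) and the cadherin *CDH5* by 0.59 (exact permutation p = 0.00233). The mean of the 6 markers ran from 8.464 to 8.802 outdoors and from 8.014 to 8.458 indoors, so that the groups did not overlap, by a narrow margin. How often the means of other lists of this size separate the groups was not counted. The mean of the 10 beta-oxidation genes did overlap, with outdoor/pasture-fed replicate 7 below indoor/concentrate-fed replicate 4. The 6 varying adipocyte markers were all lower outdoors, with differences from -0.39 to -0.03, of which none had an unadjusted p under 0.05 in limma. The smallest p values were those of the hormone *LEP* at -0.22 and the lipid droplet protein *CIDEA* at -0.13. Their list means ran from 7.21 to 7.89 outdoors and from 7.19 to 8.85 indoors. Of 5 varying fast fibre markers 1 was higher and 4 were lower, all between -0.07 and 0.14. The higher one and 3 of the lower ones had an unadjusted p under 0.05 in limma. Of the 9623 varying probe sets 888 were higher and 1027 lower outdoors at this p. The higher fast fibre marker was *MYH1* (exact permutation p = 0.00117), a myosin gene whose near-identical relatives may share its probes. The lower one with the smallest p was the troponin *TNNC2* at -0.01 (exact permutation p = 0.00758). The *TNNC2* SD over the 14 arrays was 0.011, just above the cut-off of 0.01, and its adjusted p among varying probe sets was 0.797 from limma. The list means of the fast fibre markers ran from 13.85 to 13.91 outdoors and from 13.84 to 13.90 indoors. Leukocyte (4 varying), fibroblast (5) and smooth muscle (4) markers had no gene at an unadjusted p under 0.05 in limma. Their list means ran from 6.88 to 7.55, from 10.82 to 12.43 and from 7.76 to 8.55 outdoors, and from 6.53 to 7.44, from 11.13 to 12.17 and from 7.34 to 8.43 indoors.

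**Figure D4:**
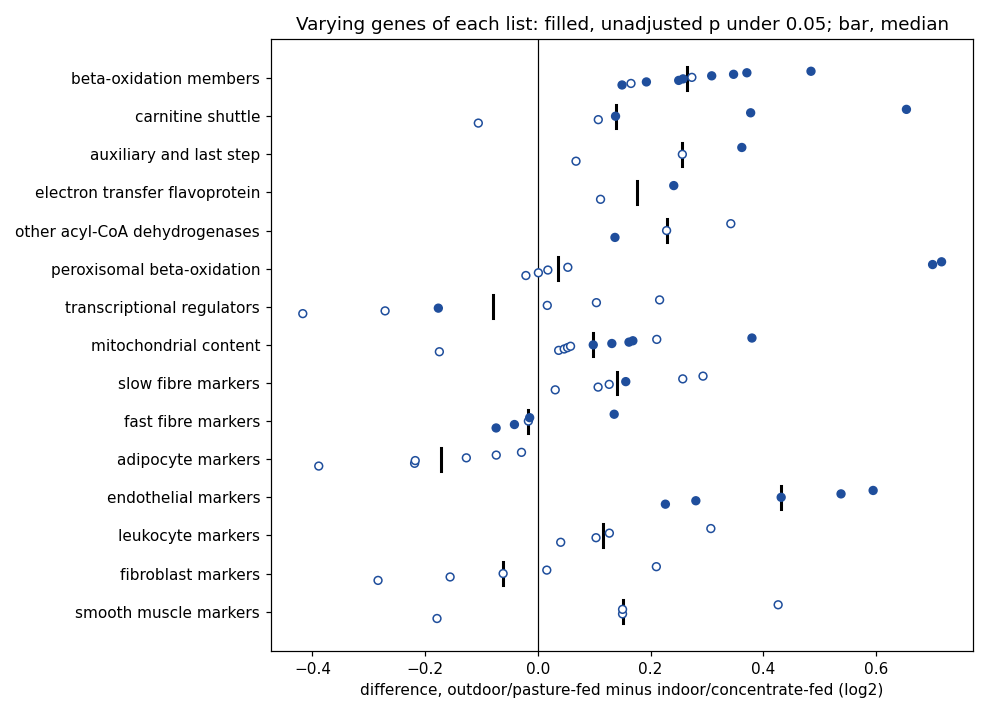
Log2 differences, outdoor minus indoor (horizontal axis), of the varying genes of each list, 1 point per gene, filled where the unadjusted p from limma was under 0.05, with the median as a bar. The 10 beta-oxidation genes lie between 0.15 and 0.48, the 5 endothelial markers between 0.23 and 0.59 and the 6 adipocyte markers below 0.

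The tissue label was borne out by muscle markers. Actin (*ACTA1*), creatine kinase (*CKM*), myoglobin (*MB*) and myosin binding protein C (*MYBPC1*) were read at 13.11 to 14.11, against array medians of 6.77 to 6.84, although each was nearly constant over the arrays. No array repeated another. The 3′ minus 5′ difference of the *GAPDH* control probe sets, a sign of RNA quality, ran from -0.06 to 0.03 outdoors and from -0.07 to 0.01 indoors. That of actin was 0.52 on every array, so nearly constant that it says little about RNA quality, and the *GAPDH* range may be narrowed in the same way. That of elongation factor 1 alpha ran from -2.38 to -1.64 outdoors and from -1.91 to -1.28 indoors, and its part in the differences was not tested.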

How the data were processed

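The deposited values are log2 expression per probe set. Per the methods, the authors applied quantile normalisation and then FARMS, a factor analysis that merges the probes of a set into 1 value. No logarithm or normalisation was added. FARMS gives almost the same value on every array to a probe set whose probes share no variation between arrays, so fold changes may be compressed. An SD of at most 0.01 was found for 14393 of the 24016 probe sets, among them strongly read ones such as that of *ACTA1*. The informative-probe-set filter of the study could not be repeated from these values and was left out. The 112 control probe sets were left out. Of the others, 13292 have 1 gene symbol, 86 several and 10638 none in the platform annotation. The 10 genes matched RefSeq by gene identifier.

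Groups were compared in R 4.3.3 with limma 3.58.1 (moderated statistics), with Benjamini-Hochberg adjustment over all probe sets and a threshold of 0.05. Exact permutation tests were two-sided and enumerated all 3432 assignments of 14 arrays to 7 and 7, with a smallest p of 0.000583. They were not adjusted for the number of genes. The number of arrays limits the precision. The fit was tried on simulated data with independent probe sets and planted differences larger than those of the 10 genes. That trial does not measure its power or error for differences of their size. The members and lists were chosen with earlier results of these data known. The genes named are the 10 members, and in each list those past the threshold or, where none passed, the 2 varying genes with the smallest p. Markers of leukocytes, fibroblasts and smooth muscle are given as ranges. Alternatives were a replicate block, other priors, filters on SD and mean, 2 other scalings, array weights, other probe sets and leaving out arrays.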

Additional observations from a re-analysis of the deposited data

Results flagged for a closer look

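In 3 of the 20 sets of 7 values (10 genes in 2 groups), 1 animal lay far from its group, where chance alone gives about 1 in 20. The gap to the nearest animal, as a share of the range of the group, was 0.589 for *ACADVL* in indoor/concentrate-fed replicate 2, at 11.64 with the next at 11.35. It was 0.665 for *ACADL* in indoor/concentrate-fed replicate 7, at 9.05 with the next at 8.72. For *ECHS1* in outdoor/pasture-fed replicate 4, the lowest of its group at 10.24 with the next at 10.39, it was 0.576. Each of these animals lies towards the other group. Without them in turn, the differences were 0.43 for *ACADVL*, 0.33 for *ACADL* and 0.18 for *ECHS1*.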

How the results depend on the processing

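All 10 differences kept their sign under the 25 alternatives, and 0 of the 10 genes passed the adjusted threshold in any of them. The lowest adjusted p from limma was 0.0772, for *HADHA* among probe sets with an SD above 0.1. The number of genes higher at an unadjusted p under 0.05, 8 with all arrays, was 5 with a replicate block, and 5 to 8 on leaving out 1 array. The share of all probe sets at this p was counted for the main fit only. The same-numbered animals were not paired by the labels, and their deviations correlated by -0.18 to 0.24, with 2 of 7 outdoor animals closest to their own number, so the block removes degrees of freedom without a known pairing. The number of genes whose groups did not overlap, 0 with all arrays, was 0 to 1 on leaving out 1 array. It was 1 (*HADHA*) without the 2 arrays highest in their groups, a choice made after seeing the data. Both cases leave out indoor/concentrate-fed replicate 4, the only animal through which the *HADHA* groups overlap, so they follow from that choice. The share of all probe sets was not counted for them. The median difference was 0.23 to 0.30 on leaving out 1 array. With array weights 6 genes were higher at an unadjusted p under 0.05, and *ACAA2* differed by 0.09, the smallest difference under any alternative. Depth is not defined for arrays, and 7 animals per group limit what can be called.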
